A study of Mus musculus with 24 samples.

Results

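The genes described here are 8 protein-coding neighbours of Mir155 on mouse chromosome 16: Mrpl39, Jam2, Atp5j, Gabpa, App, Usp16, Cct8 and Ltn1. They are listed for their position, but the list was drawn up with earlier results of these data known. It does not hold every protein-coding gene of the stretch. All 8 are among the 20673 gene symbols counted in each library. Their messenger RNA was read in CD4 T cells, B cells, macrophages and dendritic cells of wild-type (WT) and miR-155 knockout (KO) mice. The result that recurred was Mrpl39, the protein-coding gene next to the microRNA, which fell in KO in all 4 cell types, to between 0.483 and 0.762 of its WT level. None of the other 7 genes was called in any cell type by the edgeR test used throughout; an unadjusted p under 0.05 was reached by Gabpa in B cells (0.011), Jam2 in macrophages (0.0022), and App (0.0024) and Ltn1 (0.0076) in CD4 T cells, and DESeq2 called Jam2 in macrophages.

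A microRNA is a short RNA that pairs through its seed, the bases near its 5′ end, with sites in the 3′ end of messenger RNAs and lowers their level. miR-155 is made from the transcript of Mir155hg, which is switched on when B cells, T cells, macrophages and dendritic cells are activated, and it is known for its part in antibody responses and inflammatory signalling. Of the genes beside it, Mrpl39 and Atp5j encode proteins of the mitochondrion, Gabpa a transcription factor, App and Jam2 membrane proteins, and Usp16, Cct8 and Ltn1 proteins of chromatin, protein folding and protein quality control.

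On build GRCm38, the annotation places Mir155 on chromosome 16 from 84714140 to 84714204 on the plus strand, within Mir155hg from 84703167 to 84715245. Mrpl39 runs from 84717576 to 84735742 on the minus strand, towards Mir155hg, with 2330 bases between the ends of the genes. Jam2 follows from 84774123 to 84825928 on the plus strand. Atp5j, from 84827866 to 84835625 on the minus strand, and Gabpa, from 84834925 to 84863779 on the plus strand, stand head to head and their annotated starts overlap. App spans 84949685 to 85173766 on the minus strand. Ltn1, Usp16 and Cct8 start over 2.7 Mb from Mir155, with Ltn1 from 87376651 to 87432612 (minus), Usp16 from 87454703 to 87483517 (plus) and Cct8 from 87483326 to 87495873 (minus). Usp16 and Cct8 overlap at their 3′ ends. The stretch from Mrpl39 to Cct8 holds 13 protein-coding genes, of which Cyyr1, Adamts1, Adamts5, N6amt1 and Rwdd2b are not described as neighbours here. The deposited counts were made on build mm9 and were matched to this annotation by symbol.

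The mature microRNA that the KO is labelled to lack is shown first, because its seed decides which messages it can pair with. Its sequence is from RefSeq on GRCm38.p6, 5′ to 3′, with the seed, bases 2 to 8, in capitals.
mmu-miR-155-5p: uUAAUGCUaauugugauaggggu
The seed matches searched for were the 8mer AGCATTAA, the 7mer forms AGCATTA and GCATTAA, and the 6mer GCATTA, in the longest annotated 3′ untranslated region. An 8mer or 7mer was found in 12.8% of 19998 genes and in none of the 8 neighbours. Jam2 had a single 6mer, a form that 9.98% of genes had at least once outside a longer match. Bach1, a transcriptional repressor on the same chromosome 2.98 Mb from Mir155 and a reported target of miR-155, has an 8mer and a 7mer and is used below for comparison. The sites are shown 5′ to 3′ on the message strand, as DNA from the GRCm38 transcripts, with the seed match in capitals.
Bach1 8mer: aacagtttAGCATTAAgggt
Bach1 7mer: tattgcatAGCATTAtacat
Jam2 6mer: cattagaatGCATTActaga
A match or its absence describes these letters only.

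Each of the 8 groups, 4 cell types from WT and from miR-155 KO mice of C57BL/6J background, had 3 libraries. B cells came from spleen and received 25 ug/ml LPS with 6.5 ng/ml IL-4. Dendritic cells were CD11c+ spleen cells given 100 ng/ml LPS with 20 ng/ml GM-CSF; the mice of both genotypes had been injected with Flt3 ligand-expressing B16 melanoma cells. Macrophages were thioglycollate-elicited peritoneal cells given 100 ng/ml LPS, and CD4 T cells were CD25- and CD44- cells of lymph node and spleen activated with beads against CD3 and CD28. Age is not given in the sources used here, and neither is how the KO allele was built or how much of the locus it removes. The 3 libraries of a group are described as sequencing replicates, with no word of different animals. The p-values therefore measure the spread between libraries, which may be technical.

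Libraries held 7428821 to 14219823 gene counts. B, T, dendritic cell and macrophage markers were each far higher in the cell type of that name: the summed level of 6 macrophage markers was 26665 to 37751 in macrophages and at most 338 elsewhere. No symbol for Mir155 or Mir155hg was among those counted, so the targeted gene could not be checked from these counts. The macrophage WT libraries differed most among themselves. Their chi-square per gene was 161 between replicates 2 and 3, 65.8 between replicates 1 and 3 and 39.2 between replicates 1 and 2. Pairs within the other groups reached at most 15.9. Replicate 3 was in both of the wider pairs, and results that rest on it are given with and without it. Levels are CPM, the share of a library's gene counts scaled to a common total and adjusted by TMM, an edgeR normalization. The edgeR quasi-likelihood F test was used, and a gene is said to be called, to rise or to fall where its Benjamini-Hochberg adjusted p over all tested genes was under 0.05.

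Mrpl39 encodes a protein of the large subunit of the mitochondrial ribosome, which makes the few proteins encoded by mitochondrial DNA. In WT B cells its level was 75.3, 77.7 and 77.9 CPM, and in KO B cells 56.5, 54.6 and 65.1 CPM. Dendritic cells gave 40.6, 37.8 and 40.3 CPM in WT and 21.0, 20.4 and 15.7 CPM in KO. All 3 KO libraries lay below all 3 WT libraries in both cell types. The macrophage libraries gave 54.5, 51.6 and 52.3 CPM in WT against 32.3, 22.9 and 26.6 CPM in KO. CD4 T cells gave 66.4, 70.1 and 69.7 CPM in WT against 45.3, 48.9 and 43.2 CPM in KO. Here too the groups did not overlap, and the counts behind these values were 112 to 918 per library.

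The log2 fold change of Mrpl39, KO minus WT, was -0.39 (SE 0.07, adjusted p = 0.0048) in B cells and -1.05 (SE 0.12, adjusted p = 0.00021) in dendritic cells. It was -0.92 (SE 0.14, adjusted p = 0.046) in macrophages and -0.58 (SE 0.06, adjusted p = 0.00052) in CD4 T cells. KO over WT, these are ratios of 0.762, 0.483, 0.527 and 0.668. The call in B cells was lost when all 24 libraries were fitted together (adjusted p = 0.07). A call in macrophages was lost on leaving out KO replicate 1, 2 or 3 or WT replicate 1 (adjusted p of 0.17 to 0.2, log2 fold change -1.06 to -0.81), in fits that called 0 or 1 gene in all, and was kept without WT replicate 3 (-0.93, adjusted p = 0.0055). In dendritic cells and CD4 T cells it was kept in every alternative run.

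**Figure D1:**
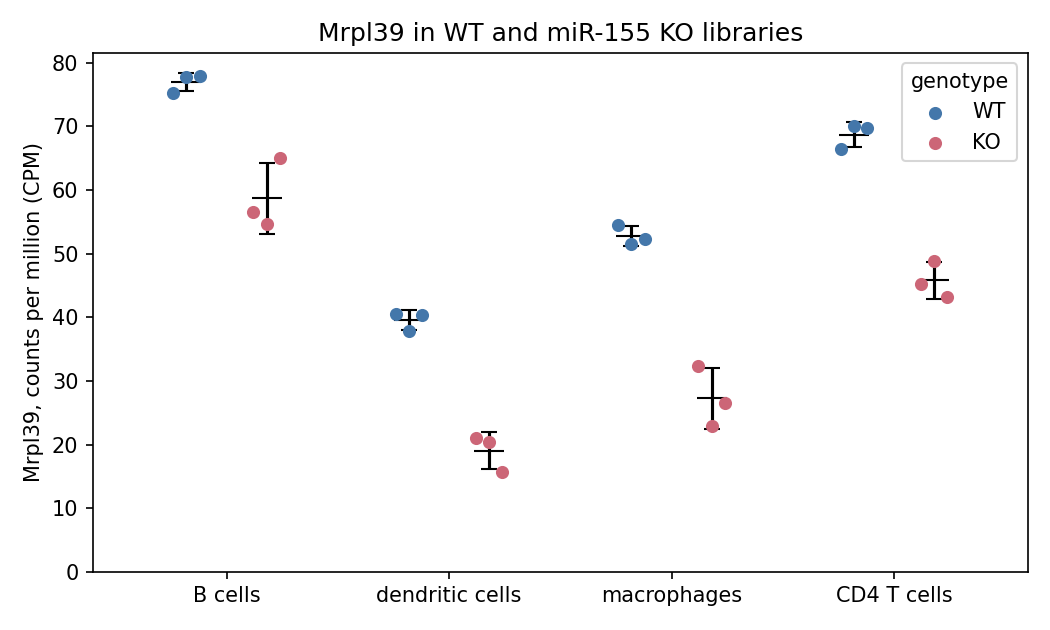
Mrpl39 level in CPM (vertical axis, from 0) in each library, by cell type, with WT in blue and KO in red; the dash is the mean of 3 libraries and the bars are 1 SD. The KO points lie below the WT points in each cell type, from 19.0 CPM in KO against 39.5 CPM in WT dendritic cells to 58.8 against 77.0 CPM in B cells.

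Against the background of all genes tested, 1 of 7 neighbours tested in B cells was called, where 3.2% of 10151 genes were called and 1.11% were called down. The same count was 1 of 7 in dendritic cells, against 21.6% called and 9.42% called down, and 1 of 7 in CD4 T cells, against 2.15% and 0.798%. All 8 neighbours were tested in macrophages and 1 was called, against 0.885% called and 0.336% called down. With the replicate block 265 genes were called there in place of 95, and the neighbours called were Mrpl39 and Jam2. In each of these fits without the block the called neighbour was Mrpl39, and Jam2 was too low to be tested outside macrophages. Of 8895 genes tested in all 4 cell types, Mrpl39 was the only gene called down in each, which is 0.0112%. A weaker condition, a lower mean in KO in each of the 4 cell types, was met by 11% of those genes and by Mrpl39 and Gabpa among the neighbours. Mrpl39 was also among the 0.225% whose KO libraries all lay below the WT libraries in each cell type.

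The summed level of some marker lists was separated by genotype in the same libraries. Of 11 marker lists, the summed level did not overlap between genotypes for 8 in dendritic cells, 4 in macrophages, 2 in CD4 T cells and 2 in B cells. Among single genes tested, the share without overlap was 41.2% in dendritic cells, 24.6% in macrophages, 22.6% in CD4 T cells and 21.7% in B cells. The 2 lists in CD4 T cells and the 2 in B cells are thus no more than that share. In dendritic cells the summed level of 6 macrophage markers, none at 0, was 79.7 to 104 CPM in KO and 124 to 338 CPM in WT, and that of 6 dendritic cell markers, none at 0, was 14538 to 15304 CPM in KO and 11120 to 11909 CPM in WT. The summed levels of B cell and endothelial markers were also higher in KO dendritic cells (12.5 to 23.2 CPM against 6.74 to 11.9 CPM, and 30.6 to 33.4 CPM against 23.8 to 29.8 CPM, with Cldn5 and Emcn at 0). The endothelial marker Tek was at 0 in KO alone. Most of the endothelial difference was in Esam, at a mean of 14.2 CPM in KO and 6.95 CPM in WT. Markers of neutrophils (1.64 to 2.11 CPM against 3.13 to 13.1 CPM, Ly6g at 0), plasma cells (166 to 184 CPM against 188 to 205 CPM), stromal cells (1.91 to 1.98 CPM against 3.11 to 3.31 CPM, with Msln, Upk3b and Krt19 at 0) and platelets (7.92 to 8.61 CPM against 9.98 to 14.7 CPM) were lower there. KO macrophages had more of the dendritic cell markers (347 to 431 CPM against 227 to 315 CPM, Xcr1 at 0). They had less of the platelet (4413 to 5285 CPM against 5442 to 5875 CPM, Gp9 at 0), plasma cell (404 to 424 CPM against 429 to 546 CPM) and endothelial markers (18.8 to 22.5 CPM against 34.9 to 39.4 CPM, with Cldn5 and Emcn at 0). Of these endothelial markers Pecam1 was lower in KO and Cdh5 higher, with values given below under Jam2. KO B cells had a lower summed level of the T cell markers (25.7 to 28 CPM against 33.5 to 34.3 CPM). Cd3g was at 0 in both genotypes there, while Cd3e and Cd4 were at 0 in WT alone. The neutrophil markers were higher in KO B cells (0.938 to 1.27 CPM against 0.688 to 0.889 CPM, with S100a8, S100a9, Ly6g and Elane at 0). Stromal markers were at 0.776 to 1.06 CPM in KO and 0.179 to 0.355 CPM in WT CD4 T cells, with Dcn, Msln, Upk3b and Krt19 at 0. Col3a1 was at 0 in KO alone, and Col1a2 and Lum in WT alone. For CD4 T cells the summed level of 7 endothelial markers was 87.6 to 102 CPM in KO and 55.0 to 76.6 CPM in WT, with Tek, Cldn5 and Emcn at 0 in both genotypes. Esam was at 0 in KO alone and Cdh5 in WT alone. The part of these marker lists in the Mrpl39 difference was not tested. In bulk RNA, fewer cells of a type and less RNA per cell cannot be told apart.

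The other genes of the mitochondrial ribosome were counted in the same fits. The share of all genes called was 3.2% in B cells, 0.885% in macrophages, 2.15% in CD4 T cells and 21.6% in dendritic cells. Of 47 other large-subunit (Mrpl) genes, none was called in B cells, macrophages or CD4 T cells, where their median log2 fold changes were 0.06, -0.17 and -0.07 and those of all genes tested were -0.00, -0.02 and -0.00. In dendritic cells 3 rose and 4 fell (median -0.13, all genes -0.01), among them Mrpl52 (-0.78, SE 0.13, adjusted p = 0.0021), Mrpl27 (-0.65, SE 0.15, adjusted p = 0.011) and Mrpl18 (0.41, SE 0.10, adjusted p = 0.014). Of 29 small-subunit (Mrps) genes, none was called in those cell types either, and in dendritic cells Mrps27 rose (0.33, SE 0.09, adjusted p = 0.025) and Mrps7 fell (-0.30, SE 0.09, adjusted p = 0.039). Of the 76 genes of both subunits, 12 in CD4 T cells, 8 in macrophages and 6 in B cells had an unadjusted p under 0.05, which is 15.8%, 10.5% and 7.89% of them where 18.1%, 17.8% and 16.5% of all genes did, and DESeq2 called 0 in each of these. Mrpl39 had the lowest log2 fold change of the 77 genes in each of the 4 cell types. The next lowest were Mrps2 at -0.14 in B cells, Mrpl52 at -0.78 in dendritic cells, Mrpl34 at -0.49 in macrophages and Mrps31 at -0.42 in CD4 T cells.

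**Figure D2:**
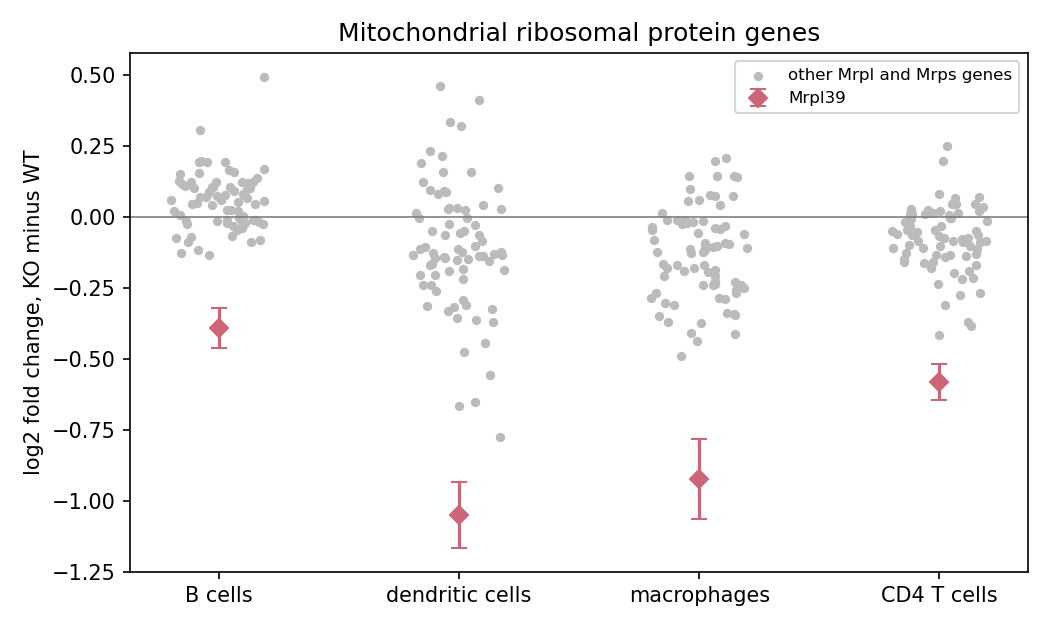
Log2 fold change, KO minus WT (vertical axis), of 77 mitochondrial ribosomal protein genes by cell type, with Mrpl39 as a red diamond with 1 SE and the other genes as grey points spread sideways for legibility. Mrpl39 lies below all grey points in each cell type, at -0.39, -1.05, -0.92 and -0.58 from left to right.

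The size of the Mrpl39 fall differed between cell types. The test of any difference in KO effect over the 4 cell types gave an adjusted p of 0.0098, in a fit where 12.6% of 12249 genes were called. The log2 fold change in B cells was above that in dendritic cells by 0.66 (SE 0.15, adjusted p = 0.01, 5.63% of genes called) and above that in macrophages by 0.55 (SE 0.14, adjusted p = 0.038, 2.67% called). The second of these was lost on leaving out single libraries in 9 of 24 fits (highest adjusted p = 0.12), namely B cell KO replicates 1 and 3, each B cell WT replicate, macrophage KO replicates 2 and 3, macrophage WT replicate 1 and CD4 T cell KO replicate 1. Dendritic cells differed from CD4 T cells by -0.47 (SE 0.15), which was not called (adjusted p = 0.067, 6.1% called). For the remaining pairs of cell types the difference was 0.19 for B cells minus CD4 T cells (SE 0.14, adjusted p = 0.97, 0.0571% called), -0.11 for dendritic cells minus macrophages (SE 0.15, adjusted p = 0.75, 9.27% called) and -0.36 for macrophages minus CD4 T cells (SE 0.14, adjusted p = 0.18, 3.63% called).

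Jam2 encodes a junctional adhesion molecule, a membrane protein known from contacts between endothelial cells and in leukocyte migration. It had 0 counts in all 6 B cell libraries, 3 counts in 1 of 6 dendritic cell libraries and 1 count in 1 of 6 CD4 T cell libraries. Macrophages gave 5.26, 4.31 and 16.5 CPM in WT and 0.546, 0.665 and 1.52 CPM in KO, from 46 to 162 and 5 to 14 counts. The KO libraries all lay below the WT libraries, and WT replicate 3 was the highest by far. The log2 fold change was -3.21 (SE 0.69, 95% interval -4.84 to -1.58) and was not called (adjusted p = 0.084).

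The Jam2 result depended on the fit. With the replicate number as a block it was called (-3.17, adjusted p = 0.014), though whether the numbers pair the macrophage libraries is not settled. Without WT replicate 3 the log2 fold change was -2.34 and it was called (adjusted p = 0.0068), and without WT replicate 2 it was -3.54 (adjusted p = 0.046). DESeq2 (-3.23, adjusted p = 4.5e-05) and the fit of all 24 libraries (-3.22, adjusted p = 0.004) called it too. Markers of cells that can carry Jam2 did not move together in these libraries. The summed level of 7 endothelial markers was 18.8 to 22.5 CPM in KO and 34.9 to 39.4 CPM in WT. Pecam1 went the same way, at 8.42 to 10.7 CPM against 28 to 31.9 CPM. Cdh5 went the other way, at 4.10 to 4.26 CPM against 1.02 to 2.58 CPM. Kdr overlapped, at 5.22 to 7.31 CPM against 1.74 to 8.67 CPM. Esam and Tek stayed below 1 CPM, and Cldn5 and Emcn were at 0 in all 6 libraries. The summed levels of 9 stromal and mesothelial markers overlapped, at 356 to 810 CPM in KO and 161 to 401 CPM in WT. Krt18 was at 0 in KO, and Msln, Upk3b and Krt19 each stayed below 1 CPM. Their part in the Jam2 difference was not tested.

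App encodes the amyloid precursor protein, a membrane protein cut by secretases. Its level in CD4 T cells was 3.04, 4.62 and 3.90 CPM in WT and 2.08, 2.44 and 1.55 CPM in KO, from 18 to 53 counts. The groups did not overlap, and the log2 fold change of -0.92 (SE 0.24, 95% interval -1.45 to -0.39) was not called (adjusted p = 0.064). It was called with no expression filter (-0.93, adjusted p = 0.028) and without WT replicate 1 (-1.07, adjusted p = 0.025). In B cells App was at 11.9, 9.31 and 14.7 CPM in WT and 8.82, 6.70 and 11.3 CPM in KO, with overlap (-0.42, SE 0.20, adjusted p = 0.33).

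In the 2 myeloid cell types App was high and its means were close between genotypes. It was at 260 ± 10.7 CPM in WT and 273 ± 6.70 CPM in KO dendritic cells (SD, n = 3; 0.08, SE 0.07, adjusted p = 0.47 by edgeR). Macrophages had 2265 ± 295 CPM in WT and 2148 ± 75.0 CPM in KO (SD, n = 3; -0.05, SE 0.15, adjusted p = 0.89 by edgeR), with an interval of -0.40 to 0.30. The log2 fold changes in dendritic cells and CD4 T cells differed by 1.0 (SE 0.29, adjusted p = 0.041), a call lost on leaving out single libraries in 15 of 24 fits (highest adjusted p = 0.15, without CD4 T cell KO replicate 3 or WT replicate 2). The test over all 4 cell types did not call App (adjusted p = 0.064).

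**Figure D3:**
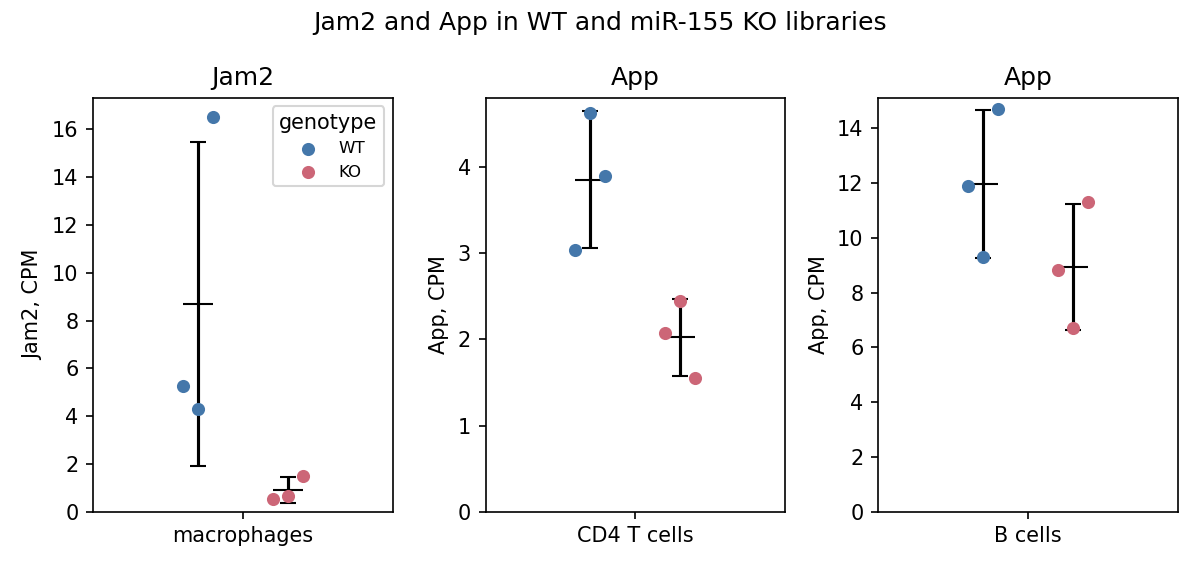
Level in CPM (vertical axes, each from 0) of Jam2 in macrophages and of App in CD4 T cells and B cells, by library, with WT in blue and KO in red; the dash is the mean of 3 libraries and the bars are 1 SD. WT and KO points do not overlap for Jam2 or for App in CD4 T cells, and they overlap for App in B cells, at 9.31 to 14.7 CPM in WT and 6.70 to 11.3 CPM in KO.

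Gabpa encodes the DNA-binding subunit of GABP, an ETS-family transcription factor known for genes of mitochondrial respiration. It was at 76.7, 72.1 and 74.2 CPM in WT and 69.6, 64.7 and 59.2 CPM in KO B cells. Those groups did not overlap, as in 21.7% of the genes tested there, and the log2 fold change of -0.20 (SE 0.07) was not called (adjusted p = 0.14). It was -0.10 (SE 0.11, adjusted p = 0.56) in dendritic cells, -0.18 (SE 0.16, adjusted p = 0.6) in macrophages and -0.17 (SE 0.08, adjusted p = 0.28) in CD4 T cells, with overlapping groups. The mean was thus lower in KO in each cell type, with no call in any.

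Atp5j encodes coupling factor 6, a subunit of mitochondrial ATP synthase, and starts head to head with Gabpa. Its log2 fold change was 0.01 (SE 0.07, adjusted p = 0.97) in B cells and -0.00 (SE 0.07, adjusted p = 0.98) in CD4 T cells, with 95% intervals of -0.13 to 0.15 and -0.15 to 0.14. Dendritic cells had 62.1, 47.1 and 53.4 CPM in WT and 46.1, 47.2 and 46.5 CPM in KO (-0.22, SE 0.10, adjusted p = 0.16), a difference called, among the alternatives run, only without WT replicate 2 (-0.31, adjusted p = 0.038). Macrophages had 112, 109 and 83.7 CPM in WT and 87.4, 84.2 and 79.0 CPM in KO (-0.25, SE 0.13, adjusted p = 0.36), and this was called without WT replicate 3 (-0.37, adjusted p = 0.017), the low WT library.

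Promoter windows, from 250 before to 50 after the RefSeq start on GRCm38.p6, were matched for each neighbour but Jam2. The Mrpl39 window, 84735195 to 84735494, lies inside the gene as given above from the GENCODE annotation, whose start differs from that of RefSeq. A pair of them is printed 5′ to 3′ on the gene's strand: that of Mrpl39, the neighbour that fell, and that of Gabpa, which overlaps a window of Atp5j by 247 bases. Capitals mark matches, on either strand, to GCATGCG (NRF1 core), CCGGAAG (ETS and GABP core) and ATGGCGG (YY1 core).
Mrpl39 (chr16:84735195-84735494, minus strand): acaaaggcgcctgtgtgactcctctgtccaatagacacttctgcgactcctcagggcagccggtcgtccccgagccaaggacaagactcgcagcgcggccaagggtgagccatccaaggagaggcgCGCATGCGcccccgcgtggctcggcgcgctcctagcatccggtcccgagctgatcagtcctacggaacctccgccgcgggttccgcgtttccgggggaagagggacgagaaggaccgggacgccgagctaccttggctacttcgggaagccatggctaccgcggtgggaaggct
Gabpa (chr16:84834874-84835173, plus strand): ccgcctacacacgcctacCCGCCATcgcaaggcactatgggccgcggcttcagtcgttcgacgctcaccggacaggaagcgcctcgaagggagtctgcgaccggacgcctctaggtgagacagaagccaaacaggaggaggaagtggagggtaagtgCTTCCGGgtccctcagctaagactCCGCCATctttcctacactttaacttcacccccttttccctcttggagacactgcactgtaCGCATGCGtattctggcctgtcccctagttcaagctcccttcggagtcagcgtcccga
The NRF1 core was in both windows and is in 3.58% of 32851 promoter windows. Each time it matched on both strands at overlapping bases of one place. The ETS core was in the Gabpa window and the overlapping Atp5j window, in Usp16 and in Cct8, against 8.86% of all windows. The YY1 core was in the windows of Gabpa and Atp5j alone among the neighbours with a window, against 4.05%. These are matches of letters and not measured binding.

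Usp16, a deubiquitinase of histone H2A, had log2 fold changes of -0.06 (CD4 T cells), -0.01 (macrophages), -0.13 (dendritic cells) and 0.06 (B cells), with SE of 0.05 to 0.13 and adjusted p of 0.24 to 0.98. In dendritic cells its groups did not overlap, at 93.2 to 105 CPM in WT and 88.2 to 92.0 CPM in KO, as in 41.2% of the genes tested there. Cct8, a subunit of the CCT chaperonin that folds actin and tubulin, had -0.09, 0.03, 0.19 and 0.03 in these cell types, in this order, at adjusted p of 0.19 to 0.89. Without WT replicate 1, Cct8 was called in dendritic cells (0.30, adjusted p = 0.0017), where that library was at 324 CPM and the other two WT libraries at 250 and 263 CPM. Usp16 and Cct8 overlap at their 3′ ends, from 87483326 to 87483517, and their longest 3′ untranslated regions are 286 and 662 bases. The deposited counts are over coding sequence. Whether counting used strand is not given in the sources used here, so any reads counted in the overlap may not be separable.

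Ltn1, the E3 ligase listerin that marks nascent chains on stalled ribosomes, was at 188, 190 and 187 CPM in WT and 208, 204 and 202 CPM in KO CD4 T cells. These groups did not overlap, as in 22.6% of the genes tested there, and the log2 fold change of 0.13 (SE 0.04) was not called (adjusted p = 0.12). In B cells it was 0.10 (SE 0.06, adjusted p = 0.48) and in dendritic cells -0.15 (SE 0.09, adjusted p = 0.25). Macrophages gave 88.7, 83.2 and 130 CPM in WT and 110, 115 and 126 CPM in KO (0.25, SE 0.19, adjusted p = 0.53), with WT replicate 3 again apart. Without that library Ltn1 was called there (0.48, adjusted p = 0.012).

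Groups that did not overlap were seen at 2 of 7 tested neighbours in B cells, 2 of 7 in dendritic cells, 3 of 7 in CD4 T cells and 2 of 8 in macrophages. The share over all genes was 21.7% in B cells, 41.2% in dendritic cells, 22.6% in CD4 T cells and 24.6% in macrophages. Over the wider region, 49 symbols start within 5 Mb of Mir155 and 10 to 12 of them were tested in each cell type. In the fit without the replicate block, Mrpl39 was the only called gene within 2 Mb in each cell type. Only 4 genes were tested there in B cells, dendritic cells and CD4 T cells, and 6 in macrophages. Within 5 Mb the called genes were Mrpl39, down, and Bach1, up, in B cells, dendritic cells and CD4 T cells, and Mrpl39 alone in macrophages. These were 2 of 10 tested genes in B cells, dendritic cells and CD4 T cells, where 3.2%, 21.6% and 2.15% of all genes were called. In dendritic cells that is no more than the share of all genes. In macrophages it was 1 of 12, where 0.885% of all genes were called. With the replicate block 3 were called in macrophages (Mrpl39, Jam2 and Bach1), in a fit that called 265 genes in all. Without WT replicate 3 it was 5 of 12 tested (Atp5j and Ltn1 as well), in a fit that called 25.4% of all genes.

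Bach1 moved the other way from Mrpl39. It was at 9.95 ± 0.328 CPM in WT and 20.9 ± 1.47 CPM in KO B cells (SD, n = 3; log2 fold change 1.07, SE 0.10, adjusted p = 1.2e-05 by edgeR). The change was 1.03 (SE 0.10, adjusted p = 0.00012) in dendritic cells and 0.60 (SE 0.11, adjusted p = 0.024) in CD4 T cells, the last lost on leaving out KO replicate 1, 2 or 3 or WT replicate 2 (adjusted p of 0.053 to 0.11). In macrophages it was 0.78 (SE 0.15, adjusted p = 0.066) and was called with the replicate block (0.79, adjusted p = 0.043), without WT replicate 2 (adjusted p = 0.034) and without WT replicate 3 (adjusted p = 0.01).

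**Figure D4:**
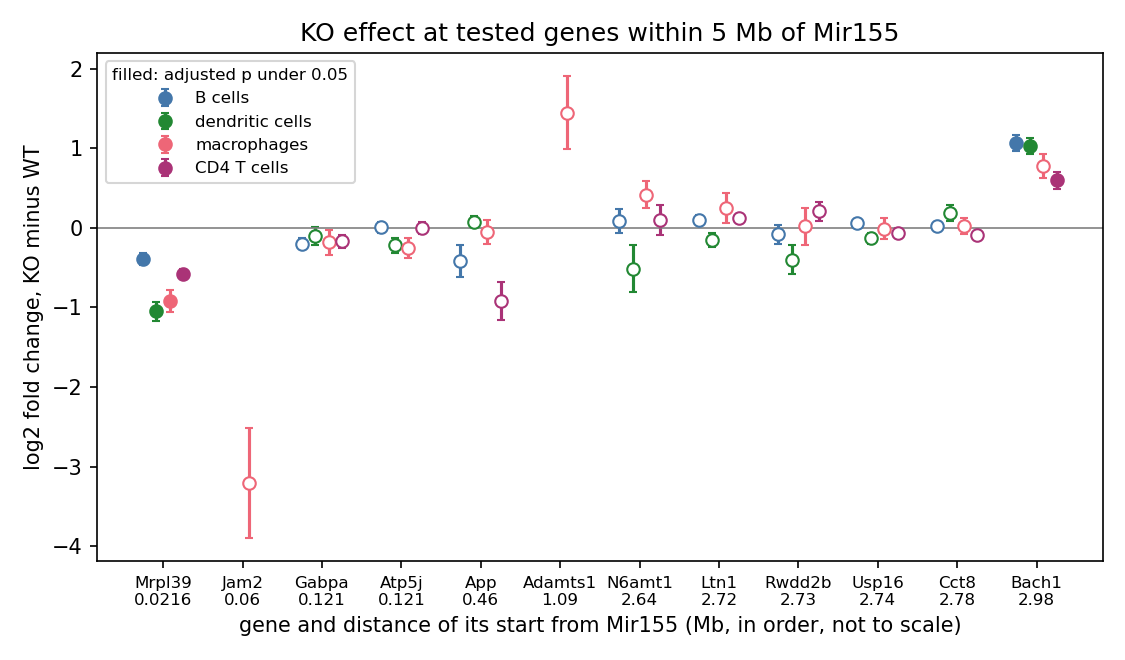
Log2 fold change, KO minus WT (vertical axis, bars 1 SE), of the genes tested within 5 Mb of Mir155, ordered by the distance of their start in Mb, which is written under each name and is not drawn to scale; colours are cell types and filled points are called. The filled points are Mrpl39, at -1.05 to -0.39, and Bach1 outside macrophages, at 0.60 to 1.07.

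The level of the neighbours across cell types was read in the WT libraries, where 37 of 48 tests, 8 genes by 6 pairs of cell types, were called. The 48 include 6 pairs of Jam2, which passed the expression filter only through macrophages. Of these, those against macrophages were called, and B cells against CD4 T cells compared 0 counts with 0. The part of Jam2 in the count was thus largely fixed beforehand. Cell type cannot be told apart here from its isolation and stimulus. The background was high as well: 78.5% of 11863 genes were called between B cells and dendritic cells, 80.4% between B cells and macrophages, 77.5% between dendritic cells and macrophages, 79.4% between dendritic cells and CD4 T cells and 81.7% between macrophages and CD4 T cells. It was 50.3% between B cells and CD4 T cells, and there App and Gabpa were the neighbours called.

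App had the widest range of the neighbours with counts in all cell types. Its WT level was 2265 CPM in macrophages, 260 CPM in dendritic cells, 12 CPM in B cells and 3.85 CPM in CD4 T cells, a ratio of 588 from highest to lowest, with all 6 pairs called. Jam2 was at least 93.2-fold higher in WT macrophages than the floor of 3 counts over the WT B cell libraries, and at least 98.5-fold higher than that of CD4 T cells. Without WT macrophage replicate 3, in which Jam2 was highest, these bounds were 51.2 and 54.1. The other six varied by 1.84 to 3.16 times. Mrpl39 followed the order B cells (77.0 CPM), CD4 T cells (68.7 CPM), macrophages (52.8 CPM) and dendritic cells (39.5 CPM), in which B and CD4 T cells did not differ beyond their spread (adjusted p = 0.095). Cct8 was at 884 CPM in B cells, 797 CPM in CD4 T cells, 318 CPM in macrophages and 279 CPM in dendritic cells, where neither the upper pair (adjusted p = 0.32) nor the lower pair (adjusted p = 0.14) was called. Ltn1 was highest in CD4 T cells (188 CPM) and B cells (159 CPM; adjusted p = 0.15), and lower in dendritic cells (104 CPM) and macrophages (101 CPM; adjusted p = 0.76).

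Gabpa followed the order of Mrpl39, at 74.3, 53.5, 45.0 and 35.7 CPM in B cells, CD4 T cells, macrophages and dendritic cells, with every pair called (adjusted p up to 0.045). Usp16 was at 144, 125, 98.0 and 78.1 CPM in B cells, CD4 T cells, dendritic cells and macrophages, and B and CD4 T cells did not differ beyond their spread (adjusted p = 0.13). Atp5j was lowest in dendritic cells, at 54.2 CPM, against 85.0, 95.7 and 102 CPM in B cells, CD4 T cells and macrophages. The upper levels were not separated between adjacent cell types in the order (adjusted p = 0.24 for B cells against CD4 T cells and 0.46 for CD4 T cells against macrophages), while B cells and macrophages were just called (adjusted p = 0.05 after rounding).

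Between genes, levels were compared per kb of coding sequence. In WT B cells the order on that scale was Cct8 (538 CPM per kb), Atp5j (262), Mrpl39 (76.4), Usp16 (58.1), Gabpa (54.6), Ltn1 (30) and App (5.18 CPM per kb). In WT macrophages App led with 981 CPM per kb, before Atp5j at 313 and Cct8 at 194 CPM per kb, and Jam2 was lowest at 9.01 CPM per kb.

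**Figure D5:**
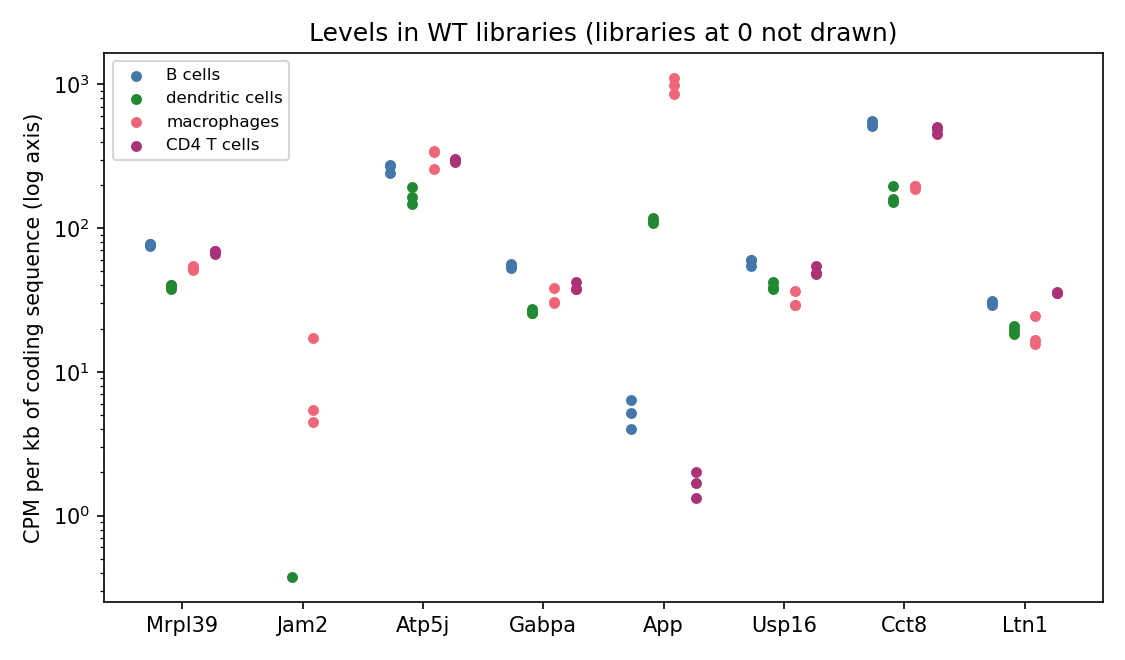
Level of each neighbour in the WT libraries in CPM per kb of coding sequence (vertical log axis), 1 point per library, coloured by cell type; libraries at 0 are not drawn. App spreads from 1.67 CPM per kb in CD4 T cells to 981 CPM per kb in macrophages, while Mrpl39 stays between 39.2 and 76.4 CPM per kb.

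The profile of each neighbour over the 24 libraries was compared with that of all tested genes by Pearson's r of log2 CPM, as a description, since libraries of a cell type share their cells and stimulus. The closest genes were Sash3 and Rpgrip1l for Mrpl39 (r = 0.88 for both), Tyrobp and Rras for App (0.99 for both), Set and Emg1 for Cct8 (0.99 for both) and Poc5 (0.99) and Supv3l1 (0.98) for Usp16. Among the neighbours themselves r was highest between Usp16 and Cct8 (0.90) and was 0.84 between Mrpl39 and Gabpa. It was 0.54 between Atp5j and Gabpa, whose promoters overlap. App ran opposite to Cct8 (r = -0.89), Usp16 (-0.87) and Ltn1 (-0.87).

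Partners of the neighbours in their complexes and pathways were counted in the same fits. Over 9 lists, mitochondrial ribosome included, none was called in B cells or macrophages, where 14 and 25 genes had an unadjusted p under 0.05 (8.86% and 15.2% of those tested, against 16.5% and 17.8% of all genes) and DESeq2 called 0 and 3 (Erf, Ets1 and Sorl1). Without macrophage WT replicate 3 the fit called 58 of 164 partners (35.4%) and 25.4% of all genes there. A single gene was called in CD4 T cells, Ets1, an ETS factor of lymphocytes (0.32, SE 0.04, adjusted p = 0.0027). In dendritic cells 26 of 164 were called (15.9%), where 21.6% of all genes were, and the counts below stand against that share. Of 17 ATP synthase genes 1 rose, 2010107E04Rik (1.02, SE 0.22, adjusted p = 0.0088), and of 7 tested CCT chaperonin genes 1 rose, Cct4 (0.31, SE 0.09, adjusted p = 0.032). Of 14 tested GABP partners and ETS factors 3 rose and 1 fell, among them Etv3 (0.62, SE 0.11), Elk3 (-0.42, SE 0.09) and Ets2 (0.85, SE 0.19). Of 16 tested genes of the APP family, its secretases and adaptors 2 rose, Aplp2, a paralogue of App (0.47, SE 0.07, adjusted p = 0.0011), and Adam10, an alpha-secretase (0.51, SE 0.09, adjusted p = 0.0033).

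Of 7 tested genes of the JAM family and tight junction partners 3 rose in dendritic cells, among them Esam (1.03, SE 0.17) and F11r, which encodes JAM-A (0.69, SE 0.13). Of 15 histone H2A ubiquitin enzymes 3 rose, Rnf8, Bmi1 and Bap1 (0.27 to 0.53). Of 12 genes of ribosome-associated quality control 1 rose, Vcp (0.25, SE 0.08, adjusted p = 0.041), and 1 fell, Gtpbp2 (-0.32, SE 0.07, adjusted p = 0.0071). The medians of these 7 lists in dendritic cells ran from -0.04 to 0.38, where the median of all genes tested was -0.01.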

How the data were processed

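RNA was sequenced as paired ends of 50 nt (TruSeq) per the labels. The deposited files hold raw whole-number read counts over coding sequence for each gene symbol. Per the submitters' processing notes, adapters were trimmed with cutadapt and reads aligned with STAR to mm9, versions not given; which tool counted the reads, and whether by strand, is not given in the sources used here. The lines without a gene (reads outside features, 51.4 to 61.1% of a library's counts) were left out. Groups follow the sample titles.

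KO and WT were compared per cell type with edgeR 4.0.16 in R 4.3.3 (TMM, filterByExpr, robust quasi-likelihood F test, two-sided, Benjamini-Hochberg over all genes tested). KO effects between cell types were compared in a fit of all 24 libraries, and WT cell types in a fit of 12. SE is |log2 fold change| over the root of F. Alternatives were RLE size factors, 2 other filters, DESeq2 1.42.0, a replicate block, 1 fit of all libraries and leaving out each library. Scripts were tested on simulated data. Deviations of same-numbered macrophage libraries correlated at 0.12, 0.3 and 0.39, but KO replicate 1 and WT replicate 2 were at 0.11. Whether the titles' numbers pair the macrophage libraries is thus not settled. The other cell types had a same-numbered pair under 0.1, and whether the numbers pair their libraries is not settled either. An exact permutation test of 3 against 3 cannot give a p below 0.1 and was not used. Library size sets the precision, and 3 counts were taken as the floor of a group at 0.

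Positions and 3′ untranslated regions are from GENCODE M21 (GRCm38), a build other than that of the files, and sequences from RefSeq (GRCm38.p6). Of the symbols, 19974 matched directly, 565 by an older name and 134 not at all. Named genes are the 8 neighbours, Bach1, called genes within 5 Mb, up to 3 called members of each list per cell type, and the 2 closest profiles of each neighbour; genes outside this rule were named after their values were seen, and 1 gene under it is not reported here. The neighbours and lists were chosen with earlier results of these data known.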

Additional observations from a re-analysis of the deposited data

Results flagged for a closer look

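The KO effect on Mrpl39 differed between the 4 cell types (adjusted p = 0.0098, edgeR interaction test). Its log2 fold change in B cells was above that in dendritic cells by 0.66 and above that in macrophages by 0.55, although Mrpl39 fell in each of them. The call against macrophages was lost in 9 of the 24 fits that left out a library. The KO effect on App differed by 1.0 on the log2 scale between dendritic cells, at 0.08, and CD4 T cells, at -0.92, neither of them called. That difference (adjusted p = 0.041, edgeR interaction test) lost its call in 15 of the 24 fits that left out a library. The edgeR test over all 4 cell types did not call App (adjusted p = 0.064).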

How the results depend on the processing

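Over the alternatives run, Mrpl39 kept its direction in all 4 cell types (log2 fold change from -0.63 to -0.54 in CD4 T cells, from -1.06 to -0.81 in macrophages, from -1.12 to -0.94 in dendritic cells and from -0.47 to -0.35 in B cells). The number of called neighbours, 1 in each cell type, became 0 in B cells in the fit of all 24 libraries, 2 in macrophages with DESeq2 and with that fit, and 2 in CD4 T cells with no expression filter; leaving out single libraries gave 1 to 2 in CD4 T cells, 0 to 4 in macrophages and 1 to 2 in dendritic cells. Called genes within 5 Mb became 1 in B cells with the fit of all 24 libraries and 3 in macrophages with that fit and with DESeq2, and leaving out libraries gave 1 to 3 in CD4 T cells and 0 to 5 in macrophages. Called partners in the lists became 2 in B cells and 6 in CD4 T cells with no filter, 2 in CD4 T cells and 3 in macrophages with DESeq2, and 0 in CD4 T cells and 20 in macrophages with all 24 libraries; leaving out libraries gave 1 to 13 in CD4 T cells, 0 to 58 in macrophages (58 without WT replicate 3), 12 to 40 in dendritic cells and 0 to 2 in B cells. Neighbours whose KO effect differed between cell types numbered 1, and 2 with DESeq2 or the block, and 1 to 4 on leaving out libraries.

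With the replicate number as a block, 3 neighbours were called in B cells (Gabpa, adjusted p = 0.0082, App, adjusted p = 0.01, and Mrpl39) and 2 in macrophages. Within 5 Mb, 4 genes were called in B cells and 3 in macrophages. Called partners numbered 10 in B cells and 4 in CD4 T cells. The block takes libraries of a number as a pair, which is not settled for macrophages or for the other cell types. In B cells the deviations of same-numbered libraries correlated at 0.18, 0.028 and 0.21. Those of unlike numbers were at -0.2 to 0.052 there. The WT B cell numbers of the titles, used here, differ from those of the deposited files. In macrophages the block changed the call of no neighbour but Jam2. All genes called in macrophages numbered 95, and 265 with the block, 586 with DESeq2, 1755 with all 24 libraries, and 0 to 2746 on leaving out libraries, the most without WT replicate 3. In B cells 325 became 1260 with the block, 501 with no filter, 81 with all 24 libraries and 141 to 441 on leaving out libraries; in CD4 T cells 223 became 478, 63 and 32 to 598 with no filter, all 24 libraries and libraries left out; in dendritic cells 2279 became 1176 to 2870 on leaving out libraries. Signs changed on leaving out libraries for Atp5j in B cells (-0.04 to 0.04) and in CD4 T cells (-0.09 to 0.05), App (-0.15 to 0.05) and Usp16 (-0.08 to 0.12) in macrophages, and Ltn1 between WT dendritic cells and macrophages (-0.07 to 0.29); none of these was called. The cause was not tested. Counts of 5 to 14 limit Jam2 in KO macrophages, and 18 to 53 limit App in CD4 T cells.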
